A study of Mus musculus with 40 samples.

Results

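The response of the mouse cerebellum to a ketogenic diet was compared between INDY and wild-type (WT) mice, as the interaction (INDY KD minus INDY SD) minus (WT KD minus WT SD). The labels put 20 of the series' 40 libraries in these groups: 4 WT libraries on standard diet (SD), 4 WT libraries on ketogenic diet (KD), 6 INDY libraries on SD and 6 on KD. All were cerebella of male mice of strain C57BL6, profiled by sequencing of total RNA after removal of ribosomal RNA. The other 20 libraries, labelled CSB and DKO and fed the same diets, shared the estimate of the spread and served as a separate set in which the same difference was taken with DKO for INDY and CSB for WT. The labels give neither ages, time on the diet nor how the INDY allele was made, and they do not say which libraries came from separate animals, so the p-values measure the spread between libraries. In bulk tissue, fewer cells of a type and less RNA per cell cannot be told apart.

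INDY is the common name of Slc13a5, a plasma membrane transporter that carries citrate into cells together with sodium. Cytosolic citrate is a source of acetyl-CoA for fatty acid and sterol synthesis and an inhibitor of glycolysis. A ketogenic diet is rich in fat and poor in carbohydrate, and the liver then releases ketone bodies that the brain can oxidise in place of glucose. The interaction is above 0 where KD minus SD is larger in INDY than in WT. It is set by 4 group means, so each result below also says which of the 4 groups it came from.

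The labels were first checked on the targeted gene. Slc13a5 had normalised estimated counts of 137, 108, 116 and 161 in the WT SD libraries and 82.1, 160.0, 114 and 95.2 in the WT KD libraries. It was at 0 in the 6 INDY SD libraries and in 5 of the 6 INDY KD libraries, with 0.824 in the sixth. Its fitted log2 interaction of 0.38 (SE 0.32, adjusted p = 0.561) compares libraries at or near 0 and is not read further. Ercc6, the gene affected in Cockayne syndrome B (CSB), lay between 718 and 1070 in 19 of the 20 libraries and at 633 in the library labelled WT KD 25 (the labels number the libraries). It ran from 490 to 663 in CSB SD, 383 to 695 in CSB KD, 540 to 654 in DKO SD and 470 to 876 in DKO KD, and each of these ranges holds 633. Gm6768, an annotated copy of Ncoa4 (1876 of 1883 aligned bases match), had a value of 1041 in the library labelled WT KD 25, 0 in the other 19, and 929 to 1245 in all CSB and DKO libraries. The library labelled WT KD 25 therefore carried this feature of the CSB and DKO libraries. Its Slc13a5 value of 114 lay within the ranges of CSB SD (95.3 to 128) and of both WT groups. In DKO libraries Slc13a5 was at 0 to 0.934. The calls are also given without WT KD 25, as are the list medians and counts that this library moved by more than 1.5 times. The deposited values had been scaled between libraries before deposit, with sums of 23736702 to 30784471 in these 20 libraries, so the sequencing depth behind each value is unknown. Libraries also stood apart in their markers of neighbouring tissue, with high forebrain levels in 7 of the 20 and low choroid plexus levels in WT KD 25 and WT KD 28, as detailed with the marker lists.

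Of 21367 genes tested, 3 passed the test for a different diet response in INDY and WT (0.014% of the genes tested). These were Zbtb34 and Heg1, with a higher response in INDY than in WT, and Wdr18, with a lower one, each at an adjusted p of 0.0429. In none of the 3 did a single group make the difference: WT SD and INDY KD lay on one side, and WT KD and INDY SD on the other. An unadjusted p under 0.05 was reached by 14.3% of the genes tested, 6.67% with a higher and 7.68% with a lower response in INDY. The 14.3% became 9.47% without WT SD 41, 10.1% without WT KD 25, 10.6% without INDY KD 20 and 20.1% without INDY KD 22. It became 9.4% with the choroid plexus level as a covariate and 7.93% with the level of long minus short transcripts described below. All 3 calls were lost without the library labelled WT KD 25, with an adjusted p of 0.0857 for each and log2 differences of 1.38, 0.92 and -0.70. They were also lost without any 1 of WT SD 40, 41 or 42, WT KD 7 or 28, INDY SD 9, 10 or 11, or INDY KD 20, 22, 45 or 46. Without INDY SD 14, 32 or 33 or INDY KD 15 some of the 3 were lost, and without WT SD 39, WT KD 12 or INDY KD 21 all 3 remained. No direction changed. With the spread taken from these 20 libraries alone no gene was called (adjusted p = 0.276 for Zbtb34 and 0.069 for Heg1 and Wdr18).

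Zbtb34 (ENSMUSG00000068966.10, chr2:33406108-33431324 in GRCm38) encodes a zinc finger protein of the BTB family of DNA-binding transcription factors. Its normalised counts were 159, 197, 257 and 283 in WT SD and 120.0, 192, 149 and 137 in WT KD. In INDY SD they ran from 105 over a median of 128 to 206, and in INDY KD from 179 over a median of 242 to 341. The 2 diets overlapped in both genotypes, with WT KD mostly below WT SD and INDY KD mostly above INDY SD. KD minus SD was -0.57 on the log2 scale in WT (SE 0.20) and 0.81 in INDY (SE 0.16), neither of them called alone (adjusted p = 0.281 and 0.253). The log2 interaction was 1.38 (SE 0.25), a 2.60-fold difference between the 2 responses. INDY KD was the group farthest from the others, by 0.56 against a range of 0.67 among the other 3 group means, so the difference was spread over several groups.

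Heg1 (ENSMUSG00000075254.12, chr16:33684370-33771576 in GRCm38) encodes a transmembrane receptor of endothelial cells that organises cell junctions in developing vessels. Its counts were 939, 993, 1245 and 1216 in WT SD and 837, 802, 730 and 652 in WT KD, so that every WT KD library lay under every WT SD library. In INDY SD they ran from 782 over 955 to 1035, and in INDY KD from 1024 over 1253 to 1336, with 1 value of overlap between the diets. An annotated antisense gene, Gm15657, overlaps Heg1, and whether the counting used strand is not given in the sources used here. The log2 interaction was 0.93 (SE 0.17), a 1.91-fold difference, made of -0.54 in WT (SE 0.13) and 0.40 in INDY (SE 0.11). WT KD was the farthest group, at -0.50 from the mean of the others, whose means spanned 0.40. Within KD alone, Heg1 was also higher in INDY than in WT and passed the test (log2 difference 0.68, SE 0.12, adjusted p = 0.0304); every INDY KD library lay above every WT KD library, which held for 0.871% of the genes tested in either direction. This call was lost without WT KD 25 (log2 difference 0.67, adjusted p = 0.0797) and without any 1 of WT KD 12 or INDY KD 15, 20, 45 or 46 (adjusted p = 0.076 to 0.114). It was also lost with the choroid plexus level as a covariate (0.57, adjusted p = 0.0638) and with the spread of these 20 libraries alone (adjusted p = 0.062). The same held after quantile normalisation, with library weights, with neither trend nor robust variances and with covariates for forebrain plus liver (adjusted p = 0.0575 to 0.0802). Without the libraries of high forebrain level, which leaves WT KD 28 as the only WT KD library, the log2 difference was 0.97.

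Wdr18 (ENSMUSG00000035754.8, chr10:79960152-79970203 in GRCm38) encodes a WD repeat protein of a complex that takes part in the maturation of the large ribosomal subunit. Its counts were 840, 839, 749 and 828 in WT SD and 1123, 1008, 1156 and 1277 in WT KD, without overlap. In INDY SD they ran from 970 over 1062 to 1269, and in INDY KD from 847 over 907 to 1042. WT SD was low and WT KD high, whereas the INDY diets overlapped and INDY KD was the lower of the pair. The log2 interaction was -0.71 (SE 0.13), a 1.64-fold difference, made of 0.48 in WT (SE 0.10) and -0.23 in INDY (SE 0.08). WT SD was the farthest group, at -0.36 from the mean of the others, whose means spanned 0.30.

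**Figure D1:**
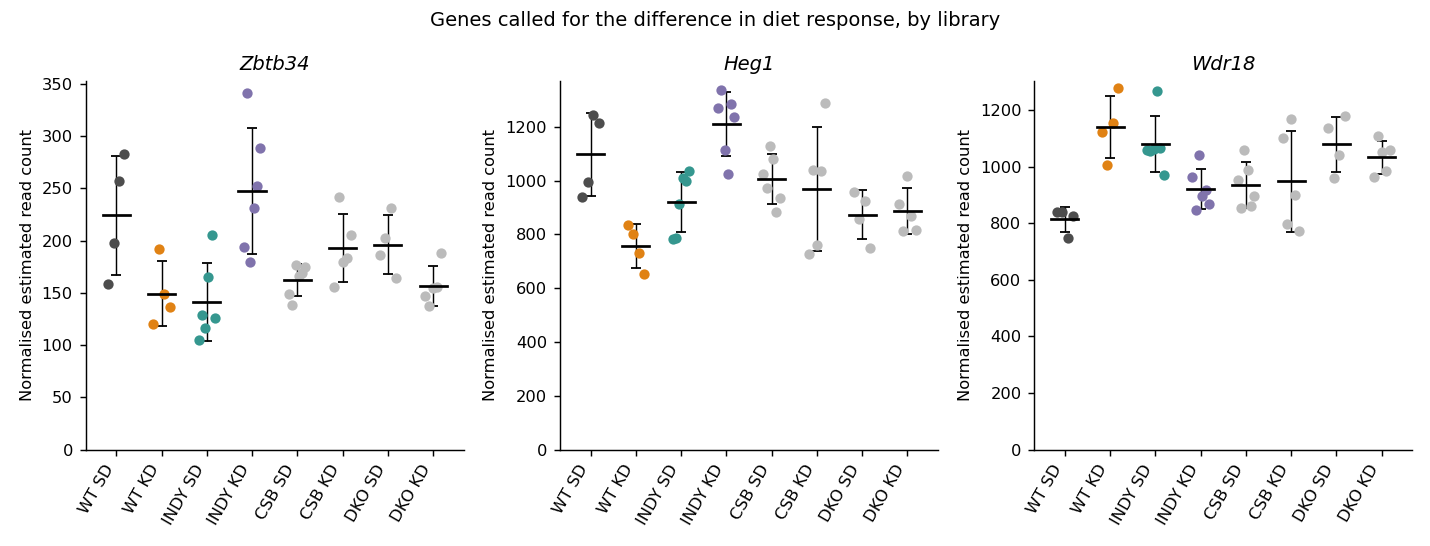
Normalised estimated read counts of Zbtb34, Heg1 and Wdr18 (vertical axes, from 0) in every library of the 8 groups (horizontal axes). Points are libraries, thick bars group means and whiskers 1 SD; grey marks the CSB and DKO libraries. Group means of Heg1 were 1098 (WT SD), 755 (WT KD), 920 (INDY SD) and 1211 (INDY KD), and the CSB and DKO means lay between 872 and 1004.

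In the CSB and DKO libraries, which entered the estimate of the spread but not the interaction's means, none of the 3 differences passed the test. Zbtb34 went the other way, with a log2 difference of -0.56 (SE 0.25, adjusted p = 0.803). Heg1 was at 0.10 (SE 0.17, adjusted p = 0.907) and Wdr18 at -0.06 (SE 0.13). No gene was called in that contrast with limma, and 5.99% of genes had an unadjusted p under 0.05. The difference between the 2 sets of libraries was not tested.

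The stretches from 250 bases before to 50 after the annotated starts of the 3 called genes are shown because these genes are the ones that passed the test (RefSeq, GRCm38.p6, each 5′ to 3′ on the gene's strand). They lie at chr2:33431275-33431574 on the minus strand (Zbtb34), chr16:33684216-33684515 on the plus strand (Heg1) and chr10:79959902-79960201 on the plus strand (Wdr18). Capitals mark 3 short motifs on either strand, in matches that can overlap: the GC box letters GGGCGG, the CCAAT box, and TGACG, the core of the cAMP response element.
Zbtb34: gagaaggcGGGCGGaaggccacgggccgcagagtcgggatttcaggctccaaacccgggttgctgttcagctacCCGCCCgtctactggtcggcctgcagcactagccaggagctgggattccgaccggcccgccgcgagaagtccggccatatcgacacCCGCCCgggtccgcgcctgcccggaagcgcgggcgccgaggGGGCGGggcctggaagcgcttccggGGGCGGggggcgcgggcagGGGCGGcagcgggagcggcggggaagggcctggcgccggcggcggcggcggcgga
Heg1: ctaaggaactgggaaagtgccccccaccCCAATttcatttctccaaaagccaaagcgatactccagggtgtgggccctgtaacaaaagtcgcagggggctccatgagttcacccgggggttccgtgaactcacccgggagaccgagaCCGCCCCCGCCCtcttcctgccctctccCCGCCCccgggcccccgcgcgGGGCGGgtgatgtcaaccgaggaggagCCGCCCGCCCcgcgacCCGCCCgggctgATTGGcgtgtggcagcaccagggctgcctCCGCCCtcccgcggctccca
Wdr18: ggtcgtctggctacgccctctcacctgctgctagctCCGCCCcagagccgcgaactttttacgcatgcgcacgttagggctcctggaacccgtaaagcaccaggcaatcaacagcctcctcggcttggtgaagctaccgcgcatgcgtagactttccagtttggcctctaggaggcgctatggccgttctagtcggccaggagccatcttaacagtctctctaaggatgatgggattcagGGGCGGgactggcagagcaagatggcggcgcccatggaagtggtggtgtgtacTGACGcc
The GC box letters were found 6 times in Zbtb34, 8 times in Heg1 and 2 times in Wdr18, and at least once in 35.7% of the 32851 annotated promoters of this length. The CCAAT box was found 2 times in Heg1 and not in the other two, and in 37.4% of all promoters. The cAMP response core was found 1 time in Wdr18, as in 20.8% of all promoters. The E-box letters CACGTG, which 7.15% of all promoters held, were in none of the 3 windows, nor were the TATA box letters TATAAA, which 13.6% held. GC content was 76.7% in Zbtb34, 69.0% in Heg1 and 59.7% in Wdr18.

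Among genes with a mean of 20 or more and no clone or model name as symbol, the 12 with the smallest p in each direction were taken as named genes. The 3 called genes are among them, and the other 21 did not pass the test (adjusted p = 0.0828 to 0.14). In all 24, WT SD and INDY KD lay on one side and WT KD and INDY SD on the other, a pattern that 44.9% of all genes tested and 94.7% of those with an unadjusted p under 0.05 showed. A group was counted as standing apart where its mean lay farther from the mean of the other 3 than 2 times their range. WT KD stood apart in 3 of the 24 (Sox9, Ptprb and Fermt3), and in the other 21 no single group did. The WT response was larger in size than the INDY response in 20 of the 24. It was so in 14331 of all 21367 genes tested and in 2516 of the 3066 with an unadjusted interaction p under 0.05. The WT diets did not overlap in 16 of the 24 (9.81% of all genes) and the INDY diets did not overlap in 1, Ep300 (0.206% of all genes). The genotypes did not overlap on SD in 12 of the 24 (5.4% of all genes) and on KD in 7 (0.871%). Since these genes were chosen by the interaction itself, the counts describe them and support nothing.

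**Figure D2:**
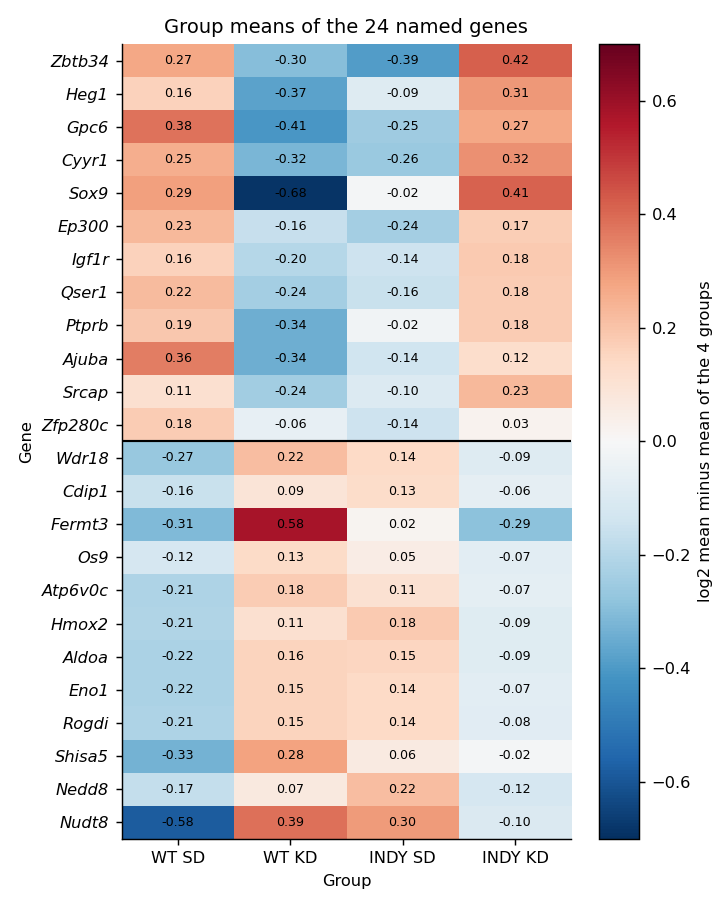
Mean log2 level of the 24 named genes (rows, 12 with a higher and 12 with a lower diet response in INDY, above and below the line) in the 4 groups (columns), minus the mean of the 4 group means; the colour scale is in log2 units and the numbers in the cells give the values. WT SD and INDY KD share a sign and WT KD and INDY SD share the other in each of the 24 rows.

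The other named genes did not pass the test. Among those with a higher response in INDY, Ep300, a histone acetyltransferase, had means of 2044 (WT SD), 1569 (WT KD), 1481 (INDY SD) and 1990 (INDY KD), with log2 interaction 0.80 (SE 0.18, adjusted p = 0.136). Every library of WT SD lay above every library of INDY SD, and every library of INDY KD above every library of INDY SD. Srcap, the ATPase of a complex that places the histone variant H2A.Z, had means of 1528, 1197, 1324 and 1658 in the same order. Srcap shares 9738 of 10209 aligned bases with the overlapping gene Gm42715, so its level is uncertain. Qser1, a protein that protects DNA from methylation, had a log2 interaction of 0.80 and Zfp280c, a zinc finger protein, of 0.40. Sox9, a transcription factor of astroglia, had the highest value of the 24, 1.40 (SE 0.30, adjusted p = 0.135). Its counts were 214, 328, 562 and 441 in WT SD and 206, 232, 259 and 93.9 in WT KD, with 1 WT KD library, WT KD 28, far under the others. INDY SD ran from 243 to 386 and INDY KD from 355 to 434, so that INDY KD lay wholly above WT KD.

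Gpc6, a glypican that carries heparan sulfate, had counts of 275, 349, 471 and 399 in WT SD and 225, 304, 181 and 163 in WT KD. INDY SD ran from 173 to 305 and INDY KD from 284 to 395, and its log2 interaction was 1.31 (SE 0.26, adjusted p = 0.0828). Cyyr1, a small cysteine- and tyrosine-rich membrane protein, had means of 150, 98.7, 103 and 156 in WT SD, WT KD, INDY SD and INDY KD (log2 interaction 1.15, SE 0.23, adjusted p = 0.0828). Ptprb, the receptor phosphatase of vascular endothelium, was at 954 to 1137 in WT KD and at 1239 or more in every library of the other 3 groups. Its WT response of -0.53 exceeded its INDY response of 0.20 in size, and WT KD alone stood apart. Igf1r, the receptor of insulin-like growth factor 1, had a log2 interaction of 0.69 and Ajuba, a LIM domain scaffold of adherens junctions, of 0.96. Ptprb and Heg1 are both endothelial. Of the 13 tested genes of the endothelial list none was called, where 0.014% of all genes were. At an unadjusted p under 0.05, 4 of the 13 were higher and 1 lower in INDY, against 6.67% and 7.68% of all genes.

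Among the genes with a lower response in INDY, 2 encode enzymes of glycolysis. Aldoa, aldolase A, has 2 tested identifiers, and the values here are those of ENSMUSG00000030695.16 alone. Its counts were 21650, 21040, 17180 and 18920 in WT SD and 24020, 24300, 30070 and 24270 in WT KD. INDY SD ran from 22350 to 31850 and INDY KD from 17290 to 25700, and the log2 interaction was -0.62 (SE 0.14, adjusted p = 0.14). WT SD lay wholly below both WT KD and INDY SD. Eno1, enolase 1, had means of 8229, 10680, 10570 and 9123 in WT SD, WT KD, INDY SD and INDY KD, with log2 interaction -0.59 (SE 0.14). Both genes have near-identical copies in the annotation (Eno1b matches Eno1 in 1727 of 1736 aligned bases, Aldoart1 matches Aldoa in 1363 of 1466), so their levels are uncertain. In both genes the library labelled WT KD 25 was the highest of its group; without it the log2 interactions were -0.54 and -0.50.

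The remaining named genes had a lower response in INDY. Atp6v0c, the ring subunit of the vacuolar proton pump, had means of 5413, 7111, 6768 and 6035 in WT SD, WT KD, INDY SD and INDY KD (log2 interaction -0.57), and it has pseudogene copies. Os9, a lectin of degradation from the endoplasmic reticulum, had -0.37 and Nedd8, a ubiquitin-like modifier, -0.57. Shisa5, a membrane protein of the endoplasmic reticulum induced by p53, had counts of 451 to 490 in WT SD and 683 to 751 in WT KD. Its response was 0.61 in WT and -0.08 in INDY, so that nearly all of its interaction of -0.69 came from WT. Cdip1, a p53 target that promotes apoptosis, had -0.44, and Hmox2, the constitutive heme oxygenase, -0.59. Cdip1 and Hmox2 overlap on opposite strands and share 895 of 983 aligned bases, so their values are not independent of each other. Rogdi had -0.59. Nudt8, a nudix hydrolase whose annotated position overlaps other genes, had -1.37 (SE 0.33) with means of 32.8, 62.6, 59.3 and 46.7.

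Fermt3, which encodes kindlin-3, an integrin activator of blood cells and microglia, had counts of 58.8, 57.5, 51.9 and 60.3 in WT SD and 109, 173, 88.0 and 77.2 in WT KD. INDY SD ran from 55.6 to 94.3 and INDY KD from 45.0 to 85.8. WT KD stood apart from the other 3 groups, and the log2 interaction was -1.20 (SE 0.27, adjusted p = 0.14). In the CSB and DKO libraries, 19 of the 24 named genes had the same sign as here, against 64.8% of all genes. None of the 24 reached an unadjusted p under 0.05 with that sign, against 4.56% of all genes, and 1, Zbtb34, reached it with the opposite sign.

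The lists that bear on the diet's fuel showed little difference between the genotypes. Among 13 genes of ketone body transport and use the median log2 interaction was 0.00, against 0.01 over all genes tested. Bdh1, which interconverts the ketone bodies, had -0.31 (SE 0.16, adjusted p = 0.374), Oxct1, the enzyme that activates acetoacetate in mitochondria, 0.06 (SE 0.13), and Slc16a1, the monocarboxylate transporter of the blood-brain barrier, 0.22 (SE 0.14). Slc16a3, a lactate exporter, had the only unadjusted p under 0.05, with means of 18.7 and 44.7 in WT on SD and KD and of 26.3 and 28.0 in INDY, so that WT KD stood apart (log2 interaction -1.19, SE 0.49). Among 32 genes of fatty acid oxidation and PPAR targets the median was -0.03, and none had an unadjusted p under 0.05. Cpt1a, which admits fatty acids to mitochondria, had 0.24 (SE 0.14), Hadha 0.00 (SE 0.12) and Angptl4, a PPAR target, -0.36 (SE 0.41). Angptl4 had a log2 response of 0.80 in WT and 0.44 in INDY.

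Among 17 genes of citrate transport and lipogenesis the median was -0.07. Acly, which splits citrate in the cytosol, had -0.37 (SE 0.24), Slc25a1, the mitochondrial citrate carrier, -0.23 (SE 0.28) and Fasn, fatty acid synthase, -0.15 (SE 0.19). Acacb, the mitochondrial acetyl-CoA carboxylase, had 1.02 (SE 0.32, adjusted p = 0.216), with means of 262, 152, 212 and 231 in WT SD, WT KD, INDY SD and INDY KD, and WT KD stood apart. Of 24 genes of cholesterol synthesis, 2 were above 0, against 50.9% of all genes, and the median was -0.24. A lower response at an unadjusted p under 0.05 was seen in 4 of the 24, against 7.68% of all genes. That median was -0.16 without WT SD 41 and -0.14 with the level of long minus short transcripts (described with transcript length) as a covariate. This covariate is computed from genes tested here, so it is not independent of the list medians.

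The lists of energy metabolism lay below 0 as groups of genes. None of their members was called. Of 68 nuclear-encoded genes of the respiratory chain, 0 were above 0, against 50.9% of all genes tested; 38 had a lower response in INDY at an unadjusted p under 0.05, against 7.68% of all genes, and the median was -0.37. Cox6a1, a subunit of cytochrome c oxidase, had means of 2101, 2654, 2650 and 2325 in WT SD, WT KD, INDY SD and INDY KD (log2 interaction -0.52, SE 0.16, adjusted p = 0.209), and Ndufb10, of complex I, 1636, 2033, 1990 and 1803. The group means crossed in 67 of the 68 genes, against 44.9% of all genes; WT SD stood apart in 6 and INDY SD in 2, against 18.1% and 5.58% of all genes. The median was -0.05 with the long minus short level as a covariate and -0.23 with the choroid plexus level. It was -0.66 without the libraries of high forebrain level, which leaves WT KD 28 as the only WT KD library.

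The 13 mitochondrially encoded mRNAs had a median of -0.59, with 0 above 0, against 50.9% of all genes. A lower response at an unadjusted p under 0.05 was seen in 7 of these mRNAs, against 7.68% of all genes. Their median response was 0.49 in WT and -0.13 in INDY. Mt-Cytb, the cytochrome b of complex III, had means of 45010, 63600, 59150 and 55590 in WT SD, WT KD, INDY SD and INDY KD, with WT SD the lowest (log2 interaction -0.59, SE 0.18, adjusted p = 0.195). Without the library labelled WT KD 25 the median of the list was -0.48, and after quantile normalisation it was -0.38.

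Of 22 glycolysis genes (21 symbols, Aldoa having 2 identifiers), 1 was above 0 and the median was -0.36. A lower response in INDY at an unadjusted p under 0.05 was seen in 11. Over all genes tested 50.9% were above 0 and 7.68% were lower at that level. Gapdh had means of 18820, 23020, 24610 and 20030 in the same order, and Gpi1, glucose phosphate isomerase, 7326, 9241, 9070 and 8424. Of 23 genes of the TCA cycle and pyruvate entry, 9 had a lower response in INDY at an unadjusted p under 0.05 and the median was -0.22; Cs, citrate synthase, had -0.34 (SE 0.11). The TCA median was -0.05 with the long minus short level as a covariate. It was -0.35 without the libraries of high forebrain level, where WT KD 28 is the only WT KD library. Of 78 cytosolic ribosomal protein genes, 3 were above 0 and 25 were lower at that level, with a median of -0.37. WT SD stood apart in 33 of the 78, against 18.1% of all genes. Rpl11 had means of 2404 (WT SD), 3403 (WT KD), 3166 (INDY SD) and 3057 (INDY KD). The ribosomal median was -0.01 with the same covariate, which is computed from genes tested here. It was -0.62 without the libraries of high forebrain level, again with WT KD 28 as the only WT KD library.

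**Figure D3:**
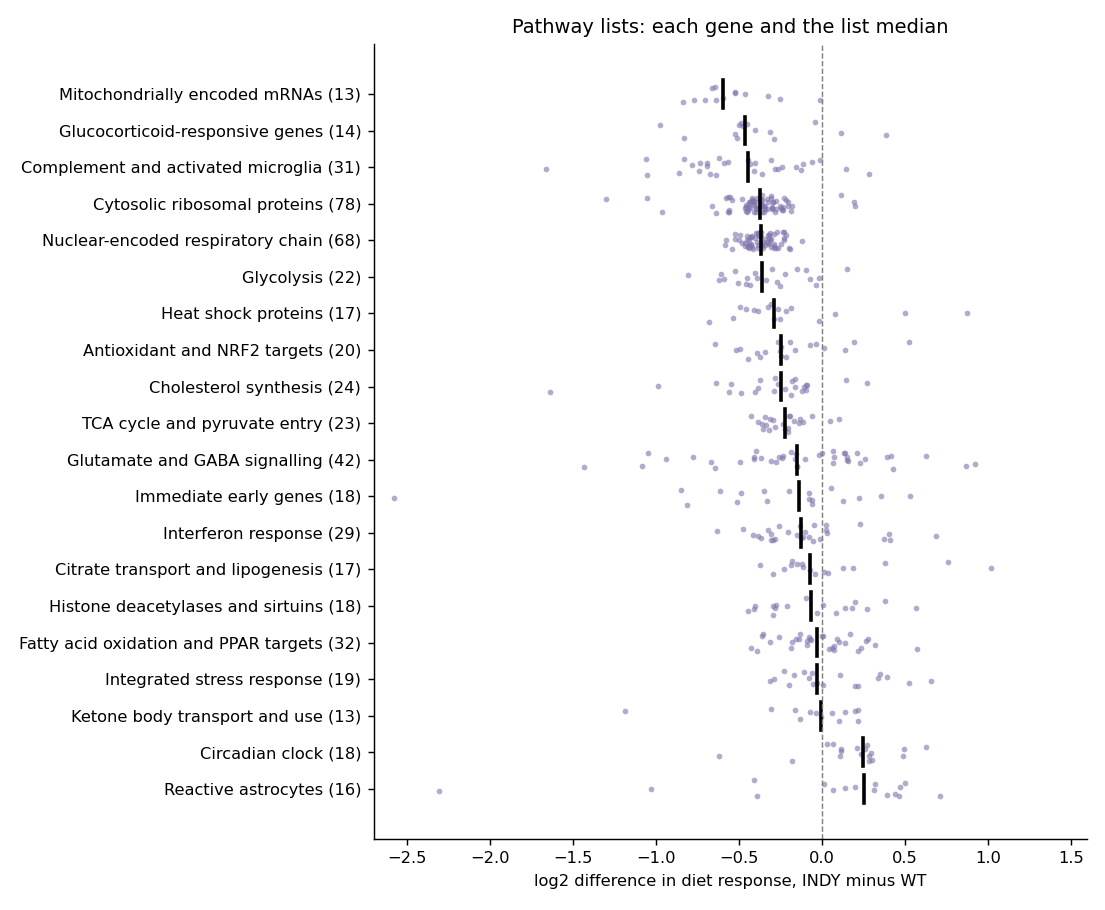
Log2 difference in diet response, INDY minus WT (horizontal axis), of each tested gene of the 20 pathway lists (rows, with the number of genes tested). Points are genes, spread vertically at random within a row, and black bars are list medians, from -0.59 for the mitochondrially encoded mRNAs to 0.26 for reactive astrocytes.

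Stress and immune lists varied. Of 31 genes of complement and activated microglia, 11 had a lower response in INDY at an unadjusted p under 0.05, with a median of -0.45. Over all genes tested 7.68% were lower at that level. Itgb2, an integrin chain of leukocytes and microglia, had means of 79.5, 195, 99.6 and 110 in WT SD, WT KD, INDY SD and INDY KD, so that WT KD stood apart, and C1qb, a chain of complement C1q, 458, 706, 626 and 561. Homeostatic microglia genes had a median of -0.55, with 5 of 17 lower at that level. Among the 17, WT SD stood apart in 9, against 18.1% of all genes. Tmem119 had means of 175, 241, 250 and 214. The median was -0.25 for 20 antioxidant and NRF2 targets (7 lower, among them Hmox1 and Sod1) and -0.29 for 17 heat shock genes (4 lower, and Bag3 higher at 0.87, SE 0.31). It was -0.46 for 14 glucocorticoid-responsive genes (2 lower) and -0.14 for 18 immediate early genes (0 at that level). With the long minus short covariate the median was -0.03 for the antioxidant, -0.18 for the glucocorticoid, -0.30 for the complement and -0.25 for the homeostatic microglia list. Without WT KD 28 the glucocorticoid median was -0.28, and without INDY KD 20 the homeostatic microglia median was -0.36. Lcn2, an acute phase gene, had a mean of 275 in WT KD and 12.0 to 15.1 in the other 3 groups, without passing the test (adjusted p = 0.32).

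The remaining pathway lists had medians of -0.03 (integrated stress response, 19 genes), -0.13 (interferon response, 29 genes), -0.06 (histone deacetylases and sirtuins, 18 genes) and -0.15 (glutamate and GABA signalling, 42 genes). At an unadjusted p under 0.05 these held 0, 0, 6 (2 higher and 4 lower) and 3 genes (all lower), against 14.3% of all genes in either direction. The glutamate and GABA median was 0.03 with the forebrain level as a covariate. The circadian clock list lay above 0 in 16 of 18 genes, against 50.9% of all genes, with a median of 0.25. That median was 0.15 without INDY KD 20, 0.14 without WT SD 41 and 0.13 with the long minus short covariate. Nr1d1, a repressor of the clock, had means of 629, 482, 571 and 610 in WT SD, WT KD, INDY SD and INDY KD, with WT KD apart. Reactive astrocyte genes had a median of 0.26, 1 of 16 being higher (Vim) and 1 lower (Lcn2) at that level; the median was 0.03 without WT KD 28, 0.15 without INDY SD 11 and 0.08 without INDY KD 15 or WT SD 41.

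Markers of tissue that borders the cerebellum differed between libraries, also within a group, and none of them was called. The tested choroid plexus markers, genes of the epithelium that makes cerebrospinal fluid, were above 0 in 17 of 18, with 10 higher in INDY at an unadjusted p under 0.05 (6.67% of all genes) and a median log2 interaction of 2.34. Their mean log2 level was 8.47, 7.90, 9.33 and 9.17 in WT SD and 8.16, 8.30, 5.40 and 5.10 in WT KD. It ran from 6.27 to 9.15 in INDY SD and from 6.49 to 9.46 in INDY KD. WT KD 25 and WT KD 28 were thus under every other library of the 20. Ttr, transthyretin, had means of 19910 (WT SD), 6359 (WT KD), 11460 (INDY SD) and 13070 (INDY KD). All 18 markers reached a value of 10 in every WT SD library.

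Ciliated ependyma markers had a median of 1.45, all 12 above 0 and 8 of them at an unadjusted p under 0.05 (6.67% of all genes). In 10 of these markers WT KD stood apart, against 7.83% of all genes. Their mean level was 5.82 to 6.82 in WT SD and 3.70 to 5.84 in WT KD. INDY SD ran from 5.50 to 6.55 and INDY KD from 4.70 to 6.38. Meningeal fibroblast markers had a median of 0.93 and all 14 above 0, 2 of them at an unadjusted p under 0.05, with WT KD apart in 10 (7.83% of all genes). Their median was 0.44 without WT KD 28, 0.60 without INDY KD 22 and 1.42 without WT KD 7. With the choroid plexus level as a covariate it was -0.02, and the ependyma median was 0.64. The same WT KD libraries, 25 and 28, were the lowest for both lists. Without WT KD 25 and the high forebrain libraries of the other groups the median was 1.14 for choroid plexus and 0.22 for meningeal fibroblasts.

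Forebrain neuron markers, genes of cortical and striatal neurons, had a median of -1.53. Their mean level was 5.51 to 5.54 in the 4 WT SD libraries and 7.25, 7.37, 7.68 and 5.28 in WT KD. In INDY SD it was 7.32 and 7.41 in libraries 9 and 14 and from 5.32 to 6.12 in the other 4, and in INDY KD 8.11 and 7.78 in libraries 21 and 22 and from 5.20 to 5.72 in the other 4. A level above 6.537, which is 1 above the highest WT SD library, was counted as high. The 0 of 4 in WT SD was thus fixed by the limit. Levels were high in 3 of 4 WT KD, 2 of 6 INDY SD and 2 of 6 INDY KD libraries. Of the 21 markers, 13 reached a value of 10 in every WT SD library and none was at 0 in all of them.

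The mean levels of the cerebellar neuron lists were highest in WT SD, with overlap between the groups. Purkinje cell markers were above 0 in 15 of 16, with a median of 0.52 and none at an unadjusted p under 0.05. In 10 of them WT SD stood apart, against 18.1% of all genes. Granule cell markers had a median of 0.37, 12 of 13 above 0 and WT SD apart in 10 (18.1% of all genes). Calb1, a calcium buffer of Purkinje cells, had means of 13420, 8513, 9396 and 9651 in WT SD, WT KD, INDY SD and INDY KD, and Gabra6, a receptor subunit of granule cells, 7218, 5270, 5600 and 5066. All 16 Purkinje and all 13 granule cell markers reached a value of 10 in every WT SD library. The Purkinje median was 0.03 with the forebrain level as a covariate, and the granule cell median was -0.17 there. The medians were 0.34 and 0.20 without WT KD 25 and 0.28 and 0.17 without INDY KD 20. Both were higher without WT KD 12 (0.79 and 0.56), and the granule cell median was 0.22 without WT KD 28, 0.25 without INDY SD 14 and 0.57 without INDY KD 21.

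**Figure D4:**
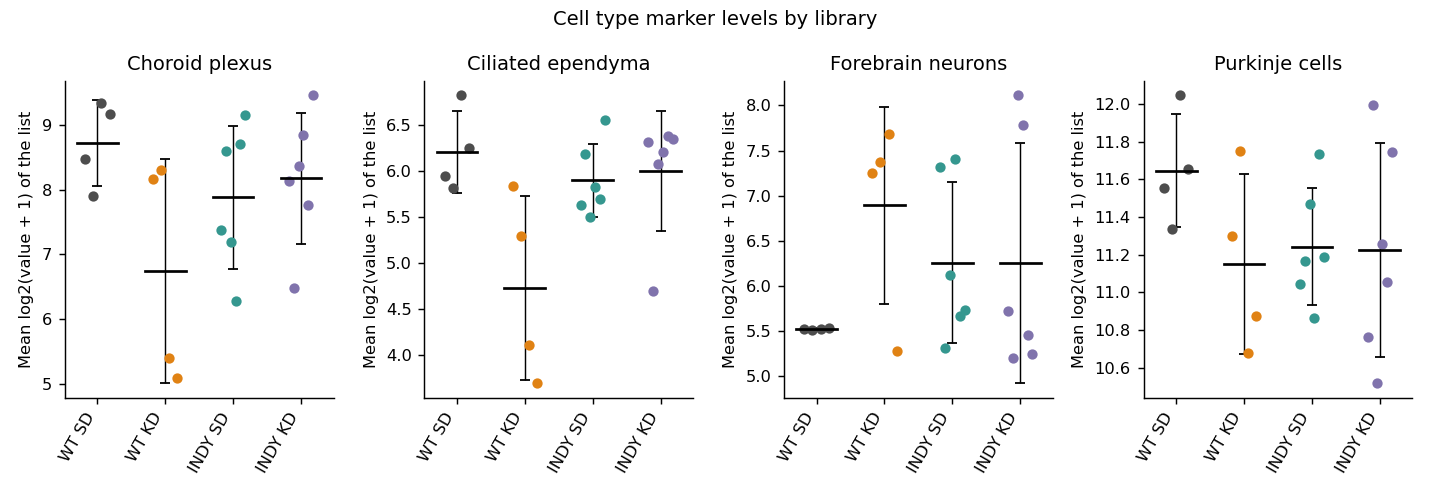
Mean log2(value + 1) of the tested markers (vertical axes, each with its own range) of choroid plexus, ciliated ependyma, forebrain neurons and Purkinje cells in each library of the 4 groups (horizontal axes). Points are libraries, thick bars group means and whiskers 1 SD. The 4 WT SD libraries lie at 5.51 to 5.54 for forebrain neurons, and 2 WT KD libraries lie at 5.10 and 5.40 for choroid plexus.

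The other cell type lists had medians from -1.46 to 0.54. These were liver (-1.46, 20 genes, 0 at an unadjusted p under 0.05), brainstem and midbrain neurons (-0.66, 20 genes, 1 lower), oligodendrocytes and myelin (-0.30, 18 genes, 1 lower), erythroid cells (-0.22, 7 genes), oligodendrocyte precursors (-0.13, 9 genes) and cerebellar interneurons (-0.08, 11 genes). Those above 0 were pericytes and smooth muscle (0.12, 10 genes, 1 higher), endothelial cells (0.15, 13 genes, 4 higher and 1 lower), Bergmann glia and astrocytes (0.27, 14 genes, 1 in each direction) and MHC class II (0.54, 7 genes, 1 lower). Over all genes tested 6.67% were higher and 7.68% lower at that level. Single libraries stood apart in some of these lists and moved their medians. The liver level reached 8.98 in INDY SD 10 and 8.35 in INDY KD 22, against 1.99 to 2.76 in WT SD. The liver median ran from -2.28 (without INDY KD 22) to -0.66 (without INDY SD 10) and was -0.01 with the long minus short covariate. The brainstem level was 3.83 in INDY KD 20, and the median was -0.17 without this library, -0.25 without WT SD 41 and -0.38 without WT KD 28. Without WT KD 25 the median was 0.05 for endothelial cells, 0.17 for Bergmann glia and astrocytes and -0.45 for erythroid cells. With the forebrain level as a covariate it was -0.02 for Bergmann glia and astrocytes and 0.08 for cerebellar interneurons. The MHC class II median was -0.18 with the choroid plexus level as a covariate. The erythroid median ran from -0.60 to 0.07, the MHC class II median from 0.04 to 0.89 and the oligodendrocyte median up to -0.13 with 1 library left out. Kdr, a receptor of vascular growth factor, had means of 445, 331, 407 and 435 in WT SD, WT KD, INDY SD and INDY KD, with WT KD apart. The part of these cell types in the pathway lists was not tested. With the choroid plexus level in the fit, the log2 interactions were 1.27 for Zbtb34, 0.76 for Heg1 and -0.56 for Wdr18, none of them called (adjusted p = 0.229). With the forebrain level they were 1.38, 0.94 and -0.68 (adjusted p = 0.0879 for Zbtb34 and Heg1, 0.0961 for Wdr18).

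Annotated transcript length moved with the interaction, a relation looked for after the values were seen. Over 16143 protein-coding genes the median log2 interaction was -0.26 in the decile with the shortest transcripts (median 1076 bases) and 0.20 in the decile with the longest (median 8469 bases), and it was higher in each decile than in the one before. In the shortest decile 20.1% of genes had a lower and 2.54% a higher response in INDY at an unadjusted p under 0.05; in the longest these were 1.36% and 19.3%. Both genotypes took part: the median response went from 0.16 to -0.10 in WT and from -0.09 to 0.08 in INDY. Zbtb34 and Heg1 have transcripts of 6602 and 8161 bases and lie in deciles 9 and 10, and Wdr18, at 3911 bases, lies in decile 6. Of the 12 named genes with a higher response in INDY, 11 were longer than the median of 3422 bases, as were 2 of the 12 with a lower response.

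**Figure D5:**
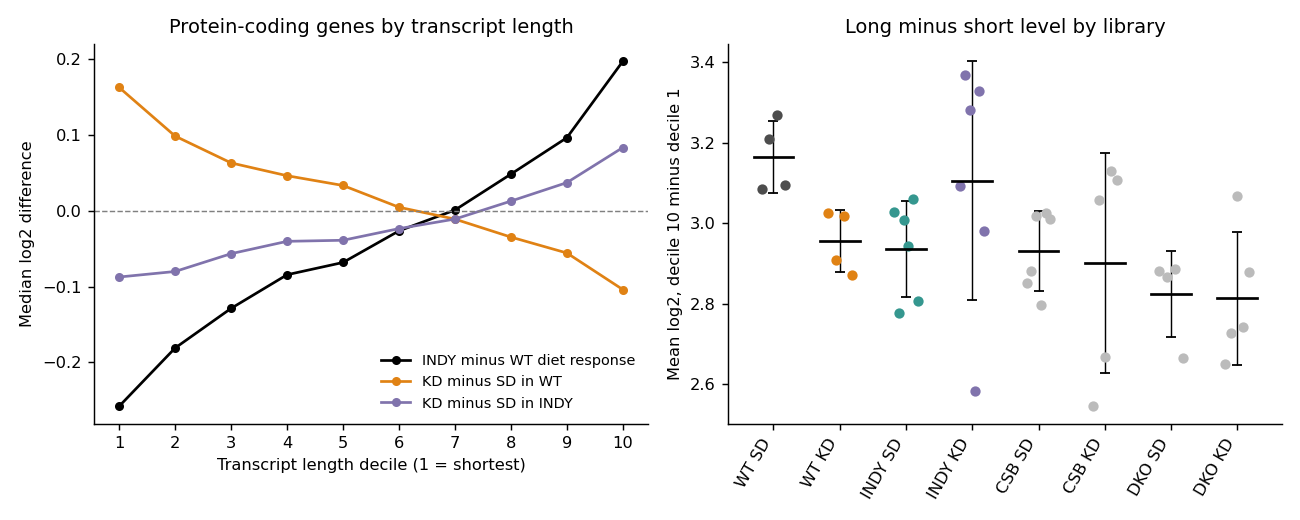
Left, median log2 difference of protein-coding genes (vertical axis) by decile of transcript length (horizontal axis, 1 the shortest) for the interaction, from -0.26 to 0.20, and for the response in WT and in INDY. Right, mean log2 level of decile 10 minus that of decile 1 in each library of the 8 groups, with group means (bars) and 1 SD (whiskers); WT SD and INDY KD have the highest means, and 1 INDY KD library lies at 2.58.

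The mean log2 level of the longest decile minus that of the shortest was 3.16 ± 0.09 (SD, n = 4) in WT SD, 2.96 ± 0.08 (n = 4) in WT KD, 2.94 ± 0.12 (n = 6) in INDY SD and 3.11 ± 0.30 (n = 6) in INDY KD. Its order over the 4 groups was that of Zbtb34 and Heg1 in outline, with WT SD and INDY KD on the high side. All 4 WT SD libraries lay above all WT KD libraries, and INDY KD 22 was far under its group at 2.58. With this level as a covariate, the log2 interactions were 1.22 for Zbtb34, 0.71 for Heg1 and -0.62 for Wdr18 (adjusted p = 0.54 for each). The covariate is computed from genes tested here, with Heg1 in decile 10 among them. It is therefore not independent of the differences it adjusts, and the part of transcript length in them was not tested.

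The 2 diet responses and the 2 genotype differences that make up the interaction were also fitted; they share its libraries. No gene was called for diet in either genotype, where 13.4% of the genes tested had an unadjusted p under 0.05 in WT and 4.63% in INDY. In WT this share was 7.41% without WT KD 25 and 7.59% without WT SD 41, and in INDY it was 8.84% without INDY KD 22. INDY minus WT called 1 gene on SD, 0.00468% of those tested, which was Slc13a5 (log2 difference -7.02), where 14.3% of genes had such a p (8.22% without WT SD 41 and 9.08% without INDY SD 14). On KD it called 2 (0.00936%), Slc13a5 (-6.64) and Heg1, where 6.59% had such a p. Among the 3066 genes with an unadjusted p under 0.05 for the interaction, WT SD stood apart in 491 (16.0%), WT KD in 213 (6.95%), INDY KD in 35 (1.14%) and INDY SD in 24 (0.783%), and the difference was shared between groups in 2303 (75.1%). Over all genes tested the corresponding shares were 18.1%, 7.83%, 3.81%, 5.58% and 64.7%. Where 1 group stood apart, it was a WT group in most genes; these groups held 4 libraries each and the INDY groups 6.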

How the data were processed

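The deposited table holds 1 column for each of 40 libraries of cerebellar RNA and 54331 gene identifiers. Its values are a signal, estimated read counts per gene scaled between libraries by the authors: they are not whole numbers, and the submitters' processing notes name Bowtie2, Salmon and DESeq2, with the build mm9 and no versions. Library columns were matched to groups through the number in the sample title. Gene names, positions and transcript lengths came from GENCODE M21 (GRCm38), which 54097 identifiers matched without their version and 53444 with it; no position was taken over from mm9.

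Genes with a value of 10 or more in 4 or more of the 40 libraries were kept (21367), and log2(value + 1) was fitted with limma 3.58.1 (R 4.3.3), 8 groups in 1 fit, with an intensity trend and robust variances. Fold changes are on that scale, which understates low genes. Tests were two-sided, p-values were adjusted by Benjamini-Hochberg over all genes tested, and a call needs an adjusted p under 0.05. A simulation with 200 changed genes was used to test the script.

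Named genes are the 12 per direction with the smallest p for the interaction, a mean of 20 or more and no clone or model name as symbol, besides all calls and, per list, up to 4 members with the smallest p or best known. Genes given as checks (Gm6768) or to illustrate a list were in part chosen after their values were seen. The 37 gene lists (20 pathways, 17 cell types) and the members were chosen with earlier results of these data known. List levels are means of log2(value + 1). Copies were searched with minimap2 2.31-r1302, and figures drawn with matplotlib 3.10.9. The alternatives covered pseudocount, filter, scaling, variance model, library weights, covariates, a residual component and left-out libraries; covariates of transcript length and 1 joint removal of libraries were added after seeing the data.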

Additional observations from a re-analysis of the deposited data

Results flagged for a closer look

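Of 164 groups of 4 to 6 libraries examined (named genes and cell type levels), 11 held a library far from the rest of its group, where chance gives about 5%, or 1 in 20. Wdr18 was at 748.9 in WT SD 41 (827.5 to 839.6 in the others) and at 1269 in INDY SD 14 (970 to 1068 in the others). Qser1 was at 861.8 in INDY SD 32 (658.5 to 705 in the others), and Ptprb at 1335 in WT SD 39 (1589 to 1628 in the others). In the library labelled WT KD 25, Aldoa was at 30070 (24020 to 24300 in the others) and Eno1 at 12730 (9865 to 10220 in the others).

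Among cell type levels, the endothelial list was at 8.907 in WT SD 41 (9.02 to 9.04 in the others) and the liver list at 2.765 in the same library (1.99 to 2.11 in the others). Cerebellar interneurons were at 9.484 in WT KD 28 (9.78 to 9.80 in the others). INDY KD 20 was low for ciliated ependyma, at 4.697 (6.08 to 6.38 in the others), and for brainstem and midbrain neurons, at 3.832 (6.84 to 8.15 in the others). Without INDY KD 20 none of the 3 interactions was called, which also held for other single libraries, as listed with the calls.

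The diet responses of INDY and WT differed by the test of the interaction itself in 3 genes: Zbtb34 (log2 1.3794), Heg1 (0.934) and Wdr18 (-0.7105). Each depended on which libraries were kept, as set out in the report.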

How the results depend on the processing

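Across the 37 alternatives the interaction of none of the 24 named genes changed direction, but the number of genes called moved from 3 in most. It was 0 with no filter, in a fit of the 4 groups alone, with neither trend nor robust variances, with the forebrain, choroid plexus, or forebrain and liver levels as covariates, and with the long minus short level. It was 5 with library weights, 20 without the libraries of high forebrain level (which leaves 1 WT KD library, assumed to vary like the other groups) and 5 without WT KD 25 and the high forebrain libraries of the other groups; none of the 20 and none of the 5 last named was among the 3. It was 604 with 1 residual component, which is taken from the residuals of the same fit, so it leaves each difference as it was and lowers the residual spread. Leaving out 1 library gave 0 to 9.

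For diet in WT the count was 0, and 3 with no filter, 1 with the choroid plexus covariate, 45 with library weights, 855 with the residual component, 50 without the high forebrain libraries, 51 with the joint removal and 0 to 17 with 1 library left out. Diet in INDY gave 0 to 1 with 1 library left out and 0 elsewhere. The genotype difference on SD (1) became 2 with no filter, 85 with library weights, 638 with the residual component and 1 to 2 with 1 library left out. On KD (2) it was 4 with the filter of 50, 5 with no filter, 4 with the forebrain covariate, 3 with the choroid plexus covariate, with the residual component and with the long minus short level, 16 without the high forebrain libraries, 8 with the joint removal and 1 to 24 with 1 library left out; it was 1 with quantile normalisation, the 4 groups alone, neither trend nor robust variances, library weights, and the forebrain and liver covariates. In the CSB and DKO libraries it was 0, 2 with library weights and 72 with the residual component. The cause of these shifts was not tested beyond what the settings' construction shows.

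Of the 37 list medians, 22 kept their sign under every alternative. Adjusted p of the called genes ran up to 0.54. No paired analysis was possible because library numbers are unique and the groups share none. Depth is unknown for values scaled before deposit.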

Other observations

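Classes of gene model differed in the interaction. The 16143 protein-coding genes had a median of -0.04, with 6.26% higher and 9.40% lower in INDY at an unadjusted p under 0.05. The 1802 genes of class TEC, single-exon gene models whose existence the annotation leaves untested, had a median of 0.46, with 1495 above 0, 220 higher at that level (12.2%) and 12 lower (0.666%). Long intergenic RNAs (1028 genes) had a median of 0.17, processed pseudogenes (527 genes) 0.23 and antisense genes (688 genes) 0.06. Total RNA was sequenced, and many TEC models lie within introns, so reads of unspliced RNA could be counted there; their part was not tested.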
